A study of Mus musculus with 3008 samples.

Results

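Transcripts of 8 genes of the tumour necrosis factor (TNF) receptor pathway were counted in single regulatory T cells (Tregs) of mouse colon and spleen. They are the receptor genes Tnfrsf4, Tnfrsf9, Tnfrsf18, Tnfrsf1a, Tnfrsf1b, Tnfrsf25 and Cd27 and the adaptor gene Traf1. The genes were chosen by name, with earlier results of these data known. All 8 were found among the 23725 genes of the count table, of which 15742 had a count in any cell. Tregs are CD4+ T cells that carry the transcription factor Foxp3 and restrain immune responses. The count table holds 3008 cells. Of these, 2391 came from the lamina propria of the colon, which is the connective tissue beneath the gut epithelium, in a first library (colon 1) and a second library of 1772 cells (colon 2), and they were set against the remaining cells, from 1 spleen library. All cells came from male mice on the B6 background aged 7 months that carried the Foxp3-Ires-Gfp reporter, and live cells without DAPI stain that were positive for TCRb, CD4 and GFP were sorted. Colon tissue was digested with the enzymes collagenase and dispase, whereas spleens were taken apart mechanically, so the effects of tissue and of dissociation cannot be told apart.

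The labels number colon 2 as a second replicate in its title but not in its sample type, so it is not known whether the colon libraries came from separate mice. No animal is named in the labels, and there was 1 spleen library, which both colon comparisons share. No p-value was therefore computed, and differences were read against 95% intervals of counting error, which do not cover the spread between mice. The libraries held 1253246 transcripts in colon 1, 3916649 in colon 2 and 1255946 in spleen, counted as unique molecular identifiers (UMIs). The median cell had 1767, 2026.5 and 1847 UMIs in colon 1, colon 2 and spleen. Colon 2 was read less deeply per molecule, with a median of 27.2 reads per UMI, against 62.7 in colon 1 and 59.7 in spleen. Ribosomal protein genes took 17.6% of the UMIs in colon 1 and 16.3% in colon 2, against 28.5% in spleen. Some cell barcodes occurred in more than 1 library, in 14 cells of colon 1, 20 of colon 2 and 16 of spleen. Cells of all 3 libraries carried the markers of the sort. Foxp3 stood at 452.4 UMIs per 1000000 UMIs of the library (CPM) in colon 1 and 306.1 in colon 2, against 281.9 in spleen, and was seen in 47.5%, 43.9% and 33.2% of cells. Summed markers of 9 other cell types were low, with at most 68.5 CPM for any type and library, reached by the CD8 or NK cell list in spleen.

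TNF receptor superfamily members are membrane proteins that are bound by trimeric ligands of the TNF family. Most recruit TRAF adaptor proteins to their cytoplasmic tails, which leads to NF-kB activation, whereas some receptors with a death domain recruit TRADD. In T cells, OX40 (Tnfrsf4), CD137 (Tnfrsf9), GITR (Tnfrsf18), TNFR2 (Tnfrsf1b) and CD27 are costimulatory receptors, and Tregs are known for high levels of several of them. Traf1 is an adaptor that binds the tails of several of these receptors and is itself an NF-kB target gene.

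Of the 8 genes, 5 exceeded their spleen level by 2-fold or more in each colon library. They were Tnfrsf4, Tnfrsf9, Tnfrsf18, Tnfrsf1b and Traf1, and no member was 2-fold lower. Counting was limited to genes with at least 50 CPM in spleen or in both colon libraries, a level that 6 of the 8 reached, so the count was 5 of 6. In the same libraries, 11.7% of 3482 such genes were higher by that rule and 4.45% were lower by it. With totals that left out ribosomal protein genes, these shares were 7.92% and 7.99% of 4392 genes. At 4-fold, 3 members remained above spleen in each colon library (Tnfrsf4, Tnfrsf9 and Tnfrsf1b), against 4.82% of all such genes. The remaining member of these 6, Cd27, was neither, and Tnfrsf1a and Tnfrsf25 lay under the minimum. Over all 8 genes, the median log2 ratio of colon to spleen was 1.37 in colon 1 and 1.51 in colon 2, beside 0.03 and 0.05 over all genes above the minimum. Since the 8 genes were chosen with earlier results known, these contrasts with all genes describe the set and are no independent test. Together the 8 genes took 0.594% of all UMIs in colon 1 and 0.681% in colon 2, against 0.186% in spleen. In sums over a library, more cells with a transcript and more transcripts per cell cannot be told apart, so both were counted in single cells as well.

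**Figure D1:**
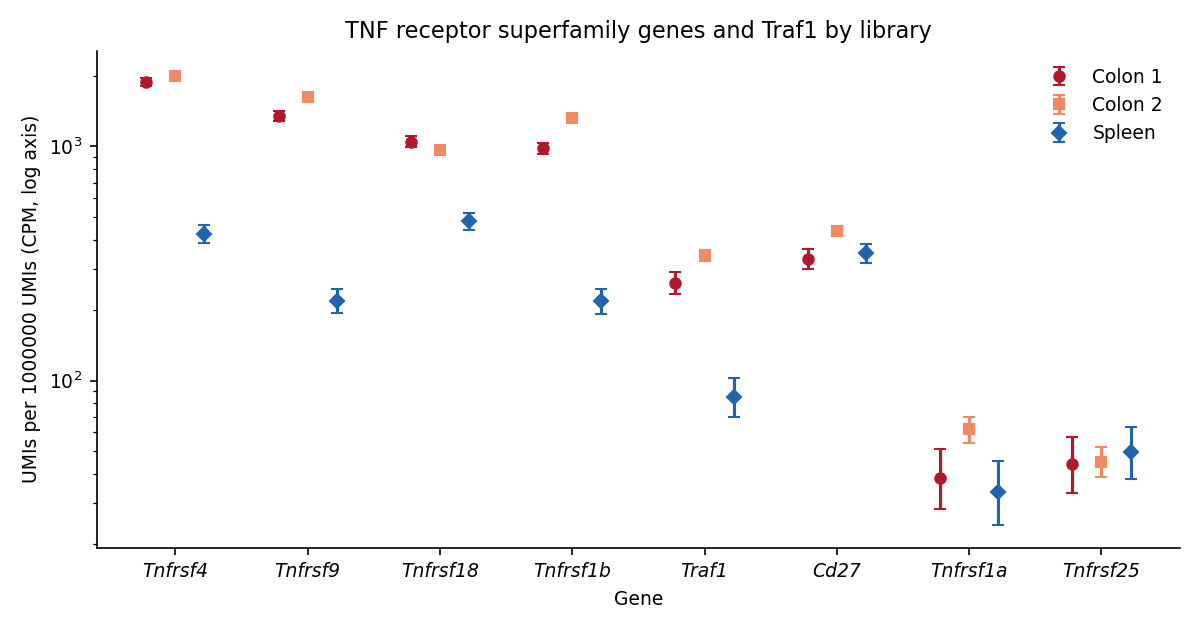
Level of each of the 8 genes in colon 1, colon 2 and spleen, in UMIs per 1000000 UMIs of the library on a log axis; bars are 95% Poisson intervals of counting error. Tnfrsf4, Tnfrsf9, Tnfrsf18, Tnfrsf1b and Traf1 lay above spleen in each colon library, while the intervals of Cd27 in colon 1 and spleen and those of Tnfrsf25 in all 3 libraries overlapped.

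The costimulatory receptors Tnfrsf4 and Tnfrsf18 lie side by side on the genome. Tnfrsf4 occupies chromosome 4, 156013843 to 156016612, on the plus strand of the mm10 build. Tnfrsf18 follows on the same strand at 156026164 to 156028895, 9.6 kb further on, with 0 protein-coding genes in between. Tnfrsf4 had 1885.5 CPM in colon 1 and 2005.5 in colon 2, against 423.6 in spleen. The log2 ratio to spleen was 2.15 in colon 1 (95% interval 2.02 to 2.29) and 2.24 in colon 2 (2.12 to 2.37). Both colon libraries were far above spleen.

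Tnfrsf18 differed less between the tissues than its neighbour did. It had 1048.5 CPM in colon 1 and 963.8 in colon 2, against 477.7 in spleen, and its log2 ratios were 1.13 (0.99 to 1.28) and 1.01 (0.89 to 1.14). The ratio in colon 2 thus lay at the 2-fold threshold. It was under the threshold with a log2 ratio of 0.95 when each cell was thinned to 1000 UMIs, 0.95 when cells were averaged with equal weight, 0.93 when colon cells with many dissociation transcripts were left out and 0.78 when totals left out ribosomal protein genes. In these settings 4 of the 8 genes met the threshold. The order of the libraries also differed from that of Tnfrsf4. The log2 ratio of colon 2 to colon 1 was -0.12 for Tnfrsf18 (-0.21 to -0.03) and 0.09 for Tnfrsf4 (0.02 to 0.16), both small and beyond counting error. Another gene within 50 kb of the pair, Sdf4, which encodes a calcium-binding protein of the secretory pathway and was picked out after its values were seen, exceeded its spleen level 2.17-fold in colon 1 and 2.39-fold in colon 2.

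Tnfrsf9 encodes CD137, a receptor that T cells induce after activation. The gene lies on chromosome 4, 150914562 to 150946102, plus strand, and overlaps Camta1 on the other strand. Whether counting used the strand is not given in the sources used here, but Camta1 had 92 UMIs in all 3 libraries, against 8361 of Tnfrsf9. Tnfrsf9 had 1350.9 CPM in colon 1 and 1632.3 in colon 2, against 218.96 in spleen. It had the highest log2 ratios of the 8 genes, 2.63 (2.44 to 2.81) in colon 1 and 2.90 (2.72 to 3.08) in colon 2. The colon libraries differed from each other by 1.21-fold, a gap larger than counting error and small beside that to spleen.

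Tnfrsf1b encodes TNFR2, the TNF receptor without a death domain (chromosome 4, 145213463 to 145246870, minus strand). It had 982.2 CPM in colon 1 and 1325.9 in colon 2, against 218.2 in spleen, with log2 ratios of 2.17 (1.98 to 2.36) and 2.60 (2.43 to 2.78). Among the 5 raised genes it differed most between the colon libraries, being 1.35-fold higher in colon 2 than in colon 1. Tnfrsf1a, which encodes the other TNF receptor, TNFR1, and carries a death domain, was rare in every library (chromosome 6, 125349362 to 125362484, plus strand). It had 38.3 CPM in colon 1 and 61.8 in colon 2, against 33.4 in spleen. For colon 1 its log2 ratio was 0.20, with an interval that includes 0 (-0.43 to 0.83), and for colon 2 it was 0.89 (0.41 to 1.39). The 2 TNF receptors therefore differed in how far colon exceeded spleen, since the intervals of their log2 ratios did not overlap in either colon library.

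Traf1, the adaptor gene (chromosome 2, 34941750 to 34961772, minus strand), had 260.9 CPM in colon 1 and 342.9 in colon 2, against 85.2 in spleen. Its log2 ratios were 1.61 (1.30 to 1.94) and 2.01 (1.72 to 2.31). Among cells with a Foxp3 UMI alone the log2 ratios were 2.32 and 2.58. Traf1 thus stood higher in colon in each of these sets of cells, by an amount that depended on which cells were taken.

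Cd27 and Tnfrsf25 did not share the colon increase. Cd27, a receptor of resting and memory T cells (chromosome 6, 125232622 to 125237010, minus strand), had 330.3 CPM in colon 1 and 435.1 in colon 2, against 348.7 in spleen. For colon 1 its log2 ratio was -0.08, with an interval that includes 0 (-0.28 to 0.12), and for colon 2 it was 0.32 (0.17 to 0.47). The mean of both log2 ratios was 0.12, and it was -0.10 when totals left out ribosomal protein genes. Cd27 overlaps Vamp1 on the other strand and the microRNA gene Mir8113 on its own, which together had 4.58% as many UMIs as Cd27 in all cells. Tnfrsf25, which encodes the death-domain receptor DR3 (chromosome 4, 152115934 to 152120119, plus strand), had 43.9 CPM in colon 1 and 44.9 in colon 2, against 49.4 in spleen. Its intervals overlapped in all 3 libraries. Between the colon libraries no member differed by 2-fold, while 0.718% of all genes above the minimum were 2-fold higher and 1.69% 2-fold lower in colon 2 than in colon 1.

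The promoters of the Tnfrsf4 and Tnfrsf18 pair are shown because the genes are adjacent, and that of Tnfrsf9, at its second start, because the gene had the highest ratios and this window holds matches. The sequences are from RefSeq (GRCm38.p6) and cover 250 bases before to 50 after an annotated start, 5′ to 3′ on the plus strand. Capitals mark matches to the NF-kB consensus or to the AP-1 motif TGANTCA, searched on both strands.
Tnfrsf4, chr4:156013445-156013744: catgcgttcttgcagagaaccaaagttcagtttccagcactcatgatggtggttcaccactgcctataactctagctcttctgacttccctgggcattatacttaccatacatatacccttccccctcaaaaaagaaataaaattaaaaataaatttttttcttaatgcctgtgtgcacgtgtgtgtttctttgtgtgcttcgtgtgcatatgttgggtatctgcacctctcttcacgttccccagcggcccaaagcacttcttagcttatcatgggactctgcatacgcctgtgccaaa
Tnfrsf18, chr4:156026072-156026371: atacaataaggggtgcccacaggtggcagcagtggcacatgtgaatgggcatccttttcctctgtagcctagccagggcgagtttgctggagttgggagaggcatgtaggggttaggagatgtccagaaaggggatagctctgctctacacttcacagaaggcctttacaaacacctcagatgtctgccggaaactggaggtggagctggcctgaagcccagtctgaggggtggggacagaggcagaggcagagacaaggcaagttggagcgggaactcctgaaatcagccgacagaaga
Tnfrsf9, second annotated start, chr4:150927749-150928048: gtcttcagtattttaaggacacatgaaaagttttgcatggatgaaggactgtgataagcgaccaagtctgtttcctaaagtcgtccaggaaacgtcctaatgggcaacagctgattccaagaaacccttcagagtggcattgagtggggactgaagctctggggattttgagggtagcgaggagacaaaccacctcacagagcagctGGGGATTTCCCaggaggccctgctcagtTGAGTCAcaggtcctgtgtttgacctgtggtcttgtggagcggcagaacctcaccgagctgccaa
In the Tnfrsf9 window, 2 overlapping NF-kB matches began 43 and 42 bases before the start, and an AP-1 match, which overlaps neither, began 15 bases before it. The windows of Tnfrsf4 and Tnfrsf18 held neither set of letters, nor did that of the first annotated start of Tnfrsf9, which is not printed. Of the 10 annotated promoters of the 8 genes, an NF-kB match was found in those of 2 genes, Tnfrsf9 and Tnfrsf25, and an AP-1 match in that of 1. Among all 32851 promoters of this length, 8.46% held an NF-kB match and 7.81% an AP-1 match. A match is a description of letters.

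In single cells, the raised receptors were both detected in more colon cells and counted more often in the cells that had them. Each cell was thinned to 1000 UMIs to remove differences in depth, which left out 9 cells of colon 1, 28 of colon 2 and 4 of spleen. Tnfrsf4 was then seen in 62.6% of colon 1 cells (58.6% to 66.5%) and 66.5% of colon 2 cells (64.2% to 68.7%), against 26.1% of spleen cells (22.7% to 29.8%). Before thinning, these shares were 73.3%, 79.2% and 36.1%. Cells with the transcript held 3.07 Tnfrsf4 UMIs on average in colon 1 and 3.003 in colon 2, against 1.69 in spleen. Both the share of cells and this number rise with a gene's mean level alone. They therefore do not separate more cells with a transcript from more transcripts per cell. No cell type that should lack the receptors was among the sorted cells, so the share that free RNA alone would give was not measured.

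Tnfrsf9 had the highest ratio of colon to spleen in detection. It was found in 52.6% and 59.8% of thinned cells of colon 1 and colon 2, against 12.7% in spleen (66.4%, 72.1% and 18.3% before thinning). Tnfrsf1b was found at 50.2% and 57.4% in colon 1 and colon 2 and 14.4% in spleen (62.2%, 72.1% and 21.4% before thinning). Tnfrsf18 was already found in 30.7% of thinned spleen cells, against 53.6% and 52.6% in colon 1 and colon 2 (66.1% and 68.3% of colon cells and 44.1% of spleen cells before thinning). For Traf1 the thinned shares were 16.9% and 22.99% in colon 1 and colon 2 and 7.67% in spleen, and for Cd27 they were 23.6% and 27.6% in colon and 25.8% in spleen. Tnfrsf1a and Tnfrsf25 were seen in at most 4.30% of thinned cells of any library.

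Detection was also more concentrated in spleen. The tenth of spleen cells with the most Tnfrsf9 UMIs held 81.1% of that gene's UMIs, against 39.2% in colon 1 and 38.5% in colon 2. For Tnfrsf1b this share was 74.1% in spleen, against 39.2% in colon 1 and 36.6% in colon 2. Cd27, whose level was similar in the tissues, was spread alike in them, with 47.3%, 46.2% and 45.7% in colon 1, colon 2 and spleen. A lower level alone raises this share, because a gene found in few cells must lie in few of them. The cell with the most Tnfrsf9 UMIs before thinning had 19 in colon 1, 34 in colon 2 and 14 in spleen.

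Colon cells carried several of the receptors at once. With 1000 UMIs per cell, the mean number of the 8 genes detected was 2.66 in colon 1 and 2.95 in colon 2, against 1.24 in spleen, and the median was 3, 3 and 1. None of the 8 was seen in 4.43% of colon 1 cells and 3.61% of colon 2 cells, against 28.2% of spleen cells. At least 4 were seen in 27.7% and 35.1% of colon 1 and colon 2 cells, against 3.75% of spleen cells.

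**Figure D2:**
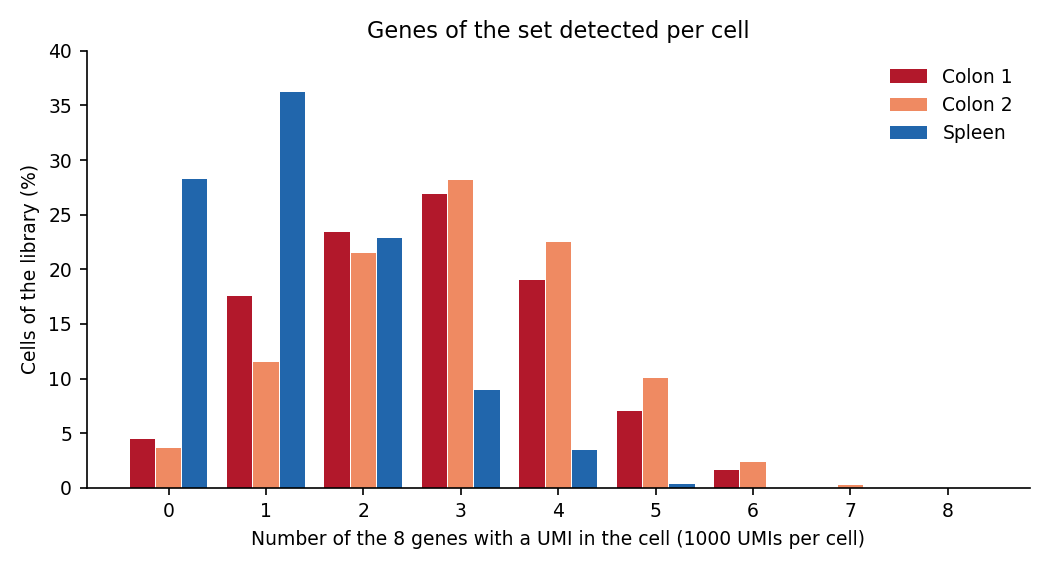
Share of cells by the number of the 8 genes with a UMI, after thinning each cell to 1000 UMIs, in colon 1, colon 2 and spleen. Spleen cells most often showed 1 gene (36.2%), and colon cells most often 3 (26.9% in colon 1 and 28.2% in colon 2).

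Pairs of the 6 more abundant genes, Traf1 among them, were compared with the product of their single shares. Of 15 pairs, 13 in colon 1, 11 in colon 2 and 11 in spleen were seen together more often. The median ratio of observed to expected cells was 1.07, 1.05 and 1.12, so many pairs lay near 1. Pairs of other genes were not counted, so these numbers have no background beside them. Over these pairs of the 6 more abundant genes, the ratio of observed to expected cells ran between 0.855 and 1.26 in colon 1, 0.859 and 1.18 in colon 2, and 0.897 and 1.57 in spleen. The highest value in spleen was that of Tnfrsf4 with Tnfrsf9, for which 32 cells had both and 20.4 were expected. The same pair had 1.15 in colon 1 and 1.11 in colon 2. The adjacent genes Tnfrsf4 and Tnfrsf18 reached 1.12 in colon 1 and 1.12 in colon 2, against 1.51 in spleen. Tnfrsf4 with Traf1 was the highest pair of both colon libraries, at 1.26 and 1.18, and the lowest in spleen, at 0.897. The spleen value rests on 11 cells with both, where 12.3 were expected. Without thinning this pair had 1.22, 1.11 and 1.04 in colon 1, colon 2 and spleen. It was then neither the highest in colon 2 nor the lowest in spleen. Pairs with shares near their ceiling cannot exceed 1 by much, so ratios of the colon and spleen libraries are not on one footing. Without thinning, 14 of the 15 pairs were above 1 in each library. Cells then differ in depth, which alone raises joint detection, so nothing on joint expression is drawn from this count.

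Within the colon, the level of most members depended on the kind of Treg. Cells were clustered with the 8 genes left out, which gave 7 clusters at the resolution used. Cluster 0 held 98.9% of spleen cells and may be that library rather than a cell type, and 5 colon clusters had enough cells to give a level. Cluster 4, with 29.2% of colon 1 cells and 31.6% of colon 2 cells, was led by Il1rl1, Penk and Gata3 among other genes and is called GATA3-ST2-like here. Cluster 3 was led by Angptl2 and Csf1, cluster 2 by Ccr7 and Hey1, cluster 5 by the heat-shock gene Hspa1a and by Rgcc, and cluster 6 by the interferon-responsive genes Iigp1 and Cxcl10 and by Tbx21, and they are given by number.

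Tnfrsf4 was highest in the GATA3-ST2-like cluster in both colon libraries. It had 3202 CPM there in colon 1 and 3269 in colon 2, and 2311 and 2597 in cluster 6. In cluster 2 it had 1159.2 and 1061.8 CPM and in cluster 5 it had 991.3 and 1204.3, with 429.2 CPM in spleen cluster 0. The highest colon cluster thus stood 3.23-fold above the lowest in colon 1 and 3.08-fold in colon 2, and the lowest was still above spleen.

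Tnfrsf9, Tnfrsf18 and Traf1 had the same highest cluster. Tnfrsf9 had 2352 CPM in cluster 4 of colon 1 and 2774 in that of colon 2, against 663.95 and 851.3 in cluster 5 and 223.99 in spleen cluster 0. Traf1 had 443.5 and 588.8 CPM in cluster 4. Its lowest colon values were 145.8 in cluster 3 of colon 1 and 200.3 in cluster 5 of colon 2, with 85.5 in spleen cluster 0. The Traf1 intervals of clusters 2, 3 and 5 met in each colon library, so its lowest cluster was not resolved. Tnfrsf18 ran over a smaller span of 2.13-fold in colon 1 and 2.33-fold in colon 2, also with cluster 4 on top. Tnfrsf1b shared that highest cluster at 1287.6 and 1698.7 CPM, but in colon 2 clusters 3 and 5 were next, at 1390.8 and 1251.9 CPM, and cluster 2 was lowest at 596.3. In colon 1 the intervals of clusters 4 and 6 met for Traf1 and for Tnfrsf1b. At a resolution of 1.2 the top cluster was no longer common to these genes. Tnfrsf4, Tnfrsf9 and Tnfrsf18 shared one in both colon libraries, which was also that of Traf1 in colon 2 but not in colon 1, and Tnfrsf1b was highest in other clusters.

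Cd27 and Tnfrsf1a had their highest values in other clusters. Cd27 was lowest in the GATA3-ST2-like cluster, with 283.3 CPM in colon 1 and 312.7 in colon 2. Cluster 5, at 299.7 and 345.8, could not be told apart from it by counting error. Nor could cluster 2 in colon 1 or cluster 6 in colon 2, whose intervals also met that of the GATA3-ST2-like cluster. The highest Cd27 value in colon 2 was 592.1 CPM in cluster 3. That cluster had 414.7 in colon 1, where cluster 6 had the highest value, with an interval of 348.02 to 625.8. Tnfrsf1a had 61.6 and 108.5 CPM in cluster 3 of colon 1 and colon 2, against 20.03 and 22.8 in cluster 4. In colon 1 its lowest value was 17.3 CPM in cluster 2, from 3 UMIs. In colon 2 these intervals were apart (91.6 to 127.7 CPM in cluster 3 and 15.2 to 32.95 in cluster 4), and in colon 1 they met (37.1 to 96.1 and 8.05 to 41.3). The Tnfrsf1a interval of cluster 3 also met that of cluster 5 in both colon libraries, so its highest cluster was not resolved. In colon 2, Tnfrsf1a was thus higher in cluster 3 than in cluster 4, and Tnfrsf1b higher in cluster 4 than in cluster 3, with intervals apart.

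**Figure D3:**
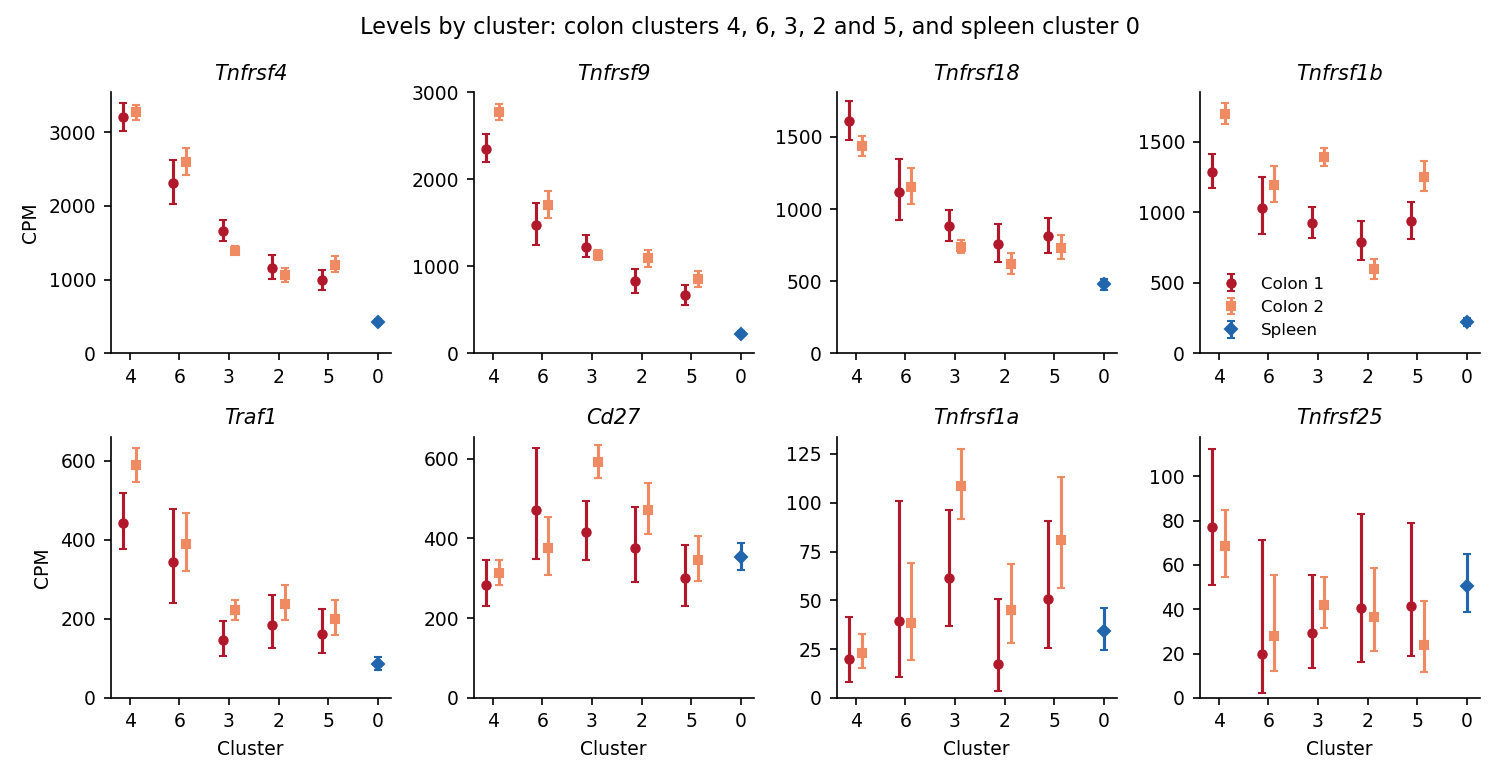
Level of each gene in CPM by cluster, for clusters 4, 6, 3, 2 and 5 of colon 1 and colon 2 and for cluster 0 of spleen, with 95% Poisson intervals of counting error. Tnfrsf4, Tnfrsf9, Tnfrsf18, Tnfrsf1b and Traf1 were highest in cluster 4 of both colon libraries (for Tnfrsf1b and Traf1 in colon 1 not apart from cluster 6). Cd27 was lowest in cluster 4, though not apart from cluster 5, from cluster 2 in colon 1 or from cluster 6 in colon 2.

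Across the 11 groups of cluster and library, some genes outside the set followed a member closely. The measure was Pearson's r of log2 (CPM + 10) over 3266 genes, as a description with no test, since the groups share 3 libraries and colon against spleen sets much of the pattern. Hopx, which encodes a homeodomain-only protein, was closest to both Tnfrsf4 (r = 0.98) and Tnfrsf9 (r = 0.98), which had r = 0.97 with each other. Tnfrsf18 was closest to Areg (0.96), the gene of the growth factor amphiregulin, ahead of Tnfrsf4. Tnfrsf1b was closest to Kctd12 and Cldnd1 (0.97 each), and Traf1 to Egln3 (0.97), Gadd45b and Nfkb1 (0.94 each), the last of which encodes an NF-kB subunit. The closest genes to Cd27 (Slc25a5, 0.88), Tnfrsf1a (Abhd17a, 0.89) and Tnfrsf25 (Gosr2, 0.89) were less alike.

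Cells with a Tnfrsf9 transcript differed from cells without one in the same library. At 1000 UMIs per cell, cells with Tnfrsf9 made up 52.6% of colon 1, 59.8% of colon 2 and, with 78 cells, 12.7% of spleen. In each library the cells with Tnfrsf9 had more Tnfrsf4, with 2498 against 1287.2 CPM in colon 1, 2519 against 1222.5 in colon 2 and 871.8 against 377.6 in spleen. They also had more Tnfrsf18, with fold values of 1.71 in colon 1, 1.67 in colon 2 and 1.74 in spleen. Tnfrsf1b was higher in the colon cells with Tnfrsf9, by 1.40-fold and 1.31-fold, and not detectably so in spleen at 1.04-fold (log2 interval -0.75 to 0.78).

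In colon, cells with Tnfrsf9 carried more transcripts of Gata3 and Il1rl1. Gata3, a transcription factor gene, had 757.01 against 328.7 CPM in colon 1 and 651.01 against 285.3 in colon 2. Il1rl1, which encodes the IL-33 receptor ST2, had 417.4 against 204.2 and 341.3 against 101.3 CPM. Genes of circulating and resting T cells were lower in them. S1pr1, a receptor for exit from tissues, had 24.9 against 190.3 CPM in colon 1 and 81.5 against 118.4 in colon 2, and the homing receptor gene Ccr7 had 208.7 against 304.5 and 216.7 against 349.5.

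Klrg1, a marker of differentiated effector cells, was higher in the cells with Tnfrsf9 of each library, at 838.01 against 536.3 CPM in colon 1, 1271.3 against 570.6 in colon 2 and 448.7 against 153.3 in spleen. S1pr1 was lower in the 78 spleen cells with Tnfrsf9 as well, at 192.3 against 418.7 CPM. In the same spleen cells Ctla4, an inhibitory receptor gene of Tregs, had 820.5 against 398.1 CPM. Il10, an anti-inflammatory cytokine gene, had 18 UMIs in 6 of the 78 cells with Tnfrsf9 and 3 UMIs in 3 cells without (log2 ratio 5.36, interval 3.59 to 7.77). The high-affinity IL-2 receptor gene Il2ra was lower, with 179.5 against 386.9 CPM, whereas in colon it was higher in cells with Tnfrsf9, at 688.5 against 546.7 in colon 1 and 1055.6 against 667.6 in colon 2. Foxp3 was also lower in the spleen cells with Tnfrsf9, at 153.8 against 302.8 CPM. UMIs of 1 cell are not independent, so these intervals are too narrow where few cells carry a gene.

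**Figure D4:**
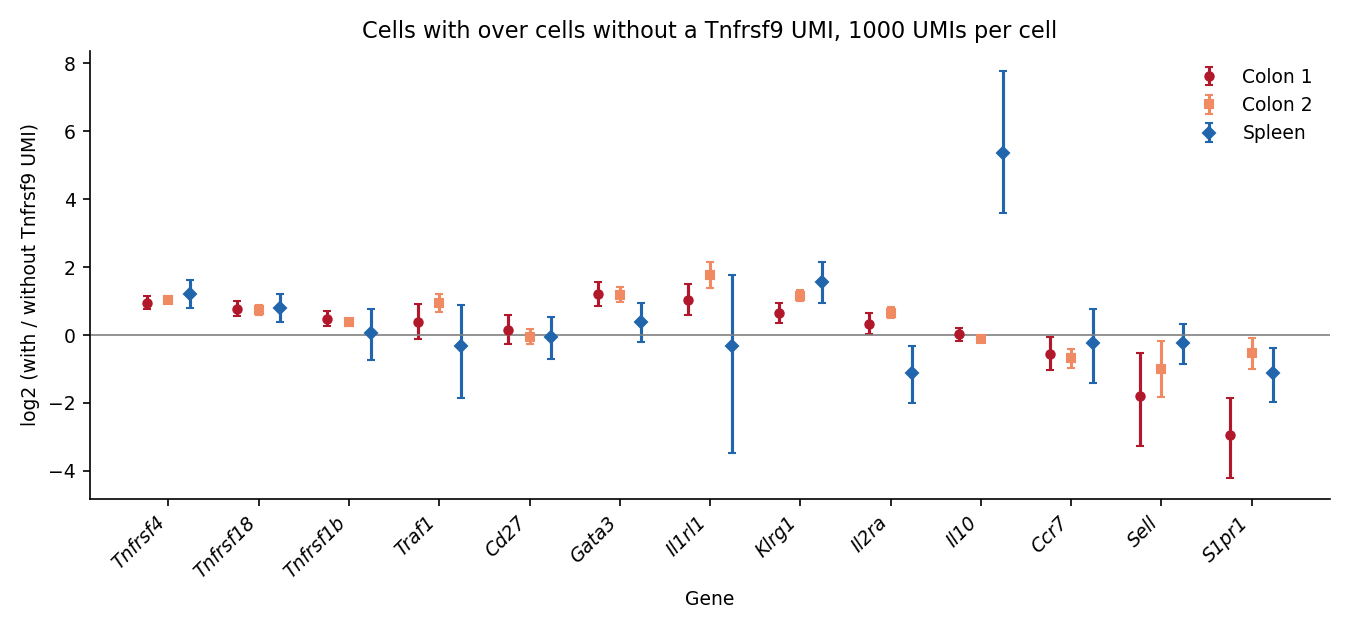
Log2 ratio of cells with a Tnfrsf9 UMI over cells without one, at 1000 UMIs per cell, for 13 genes in colon 1, colon 2 and spleen, with 95% intervals of counting error. Tnfrsf4 and Tnfrsf18 lay above 0 in all 3 libraries, Gata3 and Il1rl1 lay clearly above 0 in both colon libraries, and Il2ra lay above 0 in colon and below 0 in spleen.

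Cells with Tnfrsf1b shared several of these contrasts, among them lower Ccr7 in colon and higher Klrg1 in spleen. In colon 1 they had 94.8 CPM of Ccr7, against 414.5 in cells without it, and in colon 2 they had 174.8 against 398.4. Their Il1rl1 was not detectably different in colon 1 (313.7 against 319.1 CPM, log2 interval -0.45 to 0.40) and was 1.57-fold higher in colon 2. In spleen, the 88 cells with Tnfrsf1b had 579.5 CPM of the costimulatory gene Icos, against 245.7 in cells without it, and 454.5 against 146.7 of Klrg1. Batf and Irf4, which encode transcription factors of effector Tregs, had 227.3 against 89.5 and 68.2 against 11.4 CPM in spleen, the second from 6 UMIs on either side. Tnfrsf9 itself was not detectably different in these spleen cells (261.4 against 209.5 CPM, log2 interval -0.40 to 0.98).

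In colon, cells with Cd27 had less Gata3 and Klrg1. In colon 1 they had 430.6 CPM of Gata3, against 592.3 in cells without Cd27, and in colon 2 they had 397.1 against 544.7. Klrg1 was likewise lower, at 534.7 against 744.6 CPM in colon 1 and 723.5 against 1091.1 in colon 2. In spleen, where Gata3 was at 316.5 CPM in both, cells with Cd27 had more Foxp3, at 392.4 against 246.2 CPM.

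Dissociation and heat-shock transcripts moved with tissue and, within a library, with several members. Of 19 genes in that list, 18 were measured with at least 30 UMIs, of which 8 reached 2-fold above spleen in each colon library and 1 was lower. Over all 9580 genes with at least 30 UMIs, 10.4% were higher and 5.4% lower by this rule. Their summed level was 9416 CPM in colon 1 and 10480 in colon 2, against 5467 in spleen. Hspa1b, a heat-shock protein gene, had 375.03 and 468.3 CPM in colon 1 and colon 2, against 11.1 in spleen, and Fosb, an immediate early gene, had 392.6 and 427.7, against 17.5. Within a library, cells were split at the median share of this list. Tnfrsf4 had 2177 CPM in the upper and 1633.9 in the lower group of colon 1, 2217 and 1810 in those of colon 2, and 514.8 and 336.4 in those of spleen. Tnfrsf9 had 1476 and 1242.9 CPM in the upper and lower groups of colon 1, 1813 and 1465.2 in colon 2, and 294.9 and 146.4 in spleen. Cd27 ran the other way in colon 2, with 365.96 and 499.04 CPM. Its intervals met in colon 1, at 296.2 and 359.8 CPM, and in spleen, at 338.9 and 358.2. Traf1 had 282.5 and 242.3 CPM in the upper and lower groups of colon 1, with intervals that met, and 405.8 and 284.7 in colon 2. In spleen Traf1 was lower in the upper group, at 65.2 and 104.3 CPM, with intervals that met. Tnfrsf25 had 63.7 and 26.8 CPM in colon 1, 48.3 and 41.8 in colon 2, and 76.6 and 23.4 in spleen, the last from 15 UMIs. Its intervals met in colon 2. With the lower group of colon cells alone against all spleen cells, the mean log2 ratio was 2.02 for Tnfrsf4 and 1.01 for Tnfrsf18. Cluster 5, led by Hspa1a, had the lowest Tnfrsf9 value of the colon clusters, at 663.95 CPM in colon 1 and 851.3 in colon 2. In colon 1 its interval met that of cluster 2. The effect of dissociation on the members was not tested.

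Beyond these 8 genes, few other members of the receptor family were abundant. Of 21 further receptor genes, 8 had at least 30 UMIs over the 3 libraries, 2 of these were above spleen by 2-fold in each colon library and 1 was below, beside 10.4% and 5.4% of all genes with as many UMIs. Tnfrsf10b, a death receptor gene, had 33.5 CPM in colon 1 and 39.8 in colon 2, against 12.7 in spleen. Tnfrsf22 had 14 and 16 UMIs in colon 1 and colon 2 and 1 in spleen, and Relt, the lower one, had 3, 16 and 20. Tnfrsf14, Tnfrsf17, Ltbr and Eda2r had 0 UMIs in every cell of the table. For Ltbr, on the plus strand between Cd27 and Tnfrsf1a, this leaves the receptor of lymphotoxin without a count. No UMI was found for 7983 of the 23725 genes. A count of 0 does not tell a silent gene from one that counting did not reach, and which held was not tested.

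Among 18 ligand genes of the family, 9 had at least 30 UMIs, of which 3 were higher and 2 lower, again beside 10.4% and 5.4%. Of the 1 ligand gene above the minimum of 50 CPM, 0 were higher and 1 was lower. Tnfsf11, which encodes RANKL, had 47.9 CPM in colon 1 and 62.6 in colon 2, against 12.7 in spleen, and Fasl, the ligand of the death receptor Fas, had 17.6 and 17.1, against 3.98. The lymphotoxin genes went down instead. Lta had 7.98 and 5.62 CPM in colon 1 and colon 2, against 38.2 in spleen, and Ltb, picked out after its values were seen as the ligand with the most UMIs, had 409.3 and 407.5, against 912.5. The ligands of OX40 and of APRIL's receptors, Tnfsf4 and Tnfsf13, had 0 UMIs, with the same limit.

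Downstream of the receptors lie the NF-kB genes. Of 14 genes of NF-kB subunits, inhibitors and kinases, 8 passed 2-fold above spleen in each colon library and 0 passed below, beside 10.4% and 5.4% of all genes with at least 30 UMIs. Above the minimum of 50 CPM, 7 of 11 were higher, beside 11.7% of all such genes. The list's median log2 ratio was 1.04 in colon 1 and 1.08 in colon 2. This list too was chosen with earlier results of these data known. Nfkbie, an inhibitor gene, had 72.6 CPM in colon 1 and 101.1 in colon 2, against 15.1 in spleen. The atypical inhibitor gene Nfkbiz had 357.5 and 323.2 CPM, against 76.4, and the subunit gene Rel had 75.8 and 53.6, against 16.7. Nfkb2, which encodes the subunit of the noncanonical pathway, exceeded spleen 2.98-fold in colon 1 and 3.63-fold in colon 2.

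Of 27 TRAF and receptor-proximal genes, 26 had at least 30 UMIs, of which 4 passed 2-fold above spleen in each colon library and 0 passed below, beside 10.4% and 5.4%. Above the minimum of 50 CPM, 3 of 15 were higher, beside 11.7%, so these counts were near those of all genes. The list's median log2 ratios were 0.14 in colon 1 and 0.15 in colon 2. The largest was Tnfaip3, which encodes the NF-kB feedback protein A20, with 1109.1 CPM in colon 1 and 1081.5 in colon 2, against 172.8 in spleen. Sqstm1, the gene of the scaffold protein p62, was 2.46-fold above spleen in colon 1 and 3.27-fold in colon 2. Traf3, an adaptor that restrains noncanonical NF-kB signalling, was 2.17-fold and 2.47-fold above spleen in these libraries. Map3k14, a kinase gene of the noncanonical pathway, was 1.95-fold above spleen in colon 1 and 3.14-fold in colon 2 and so missed the threshold in 1 library. Traf5 had 0 UMIs, which again does not tell a silent gene from one that counting did not reach.

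**Figure D5:**
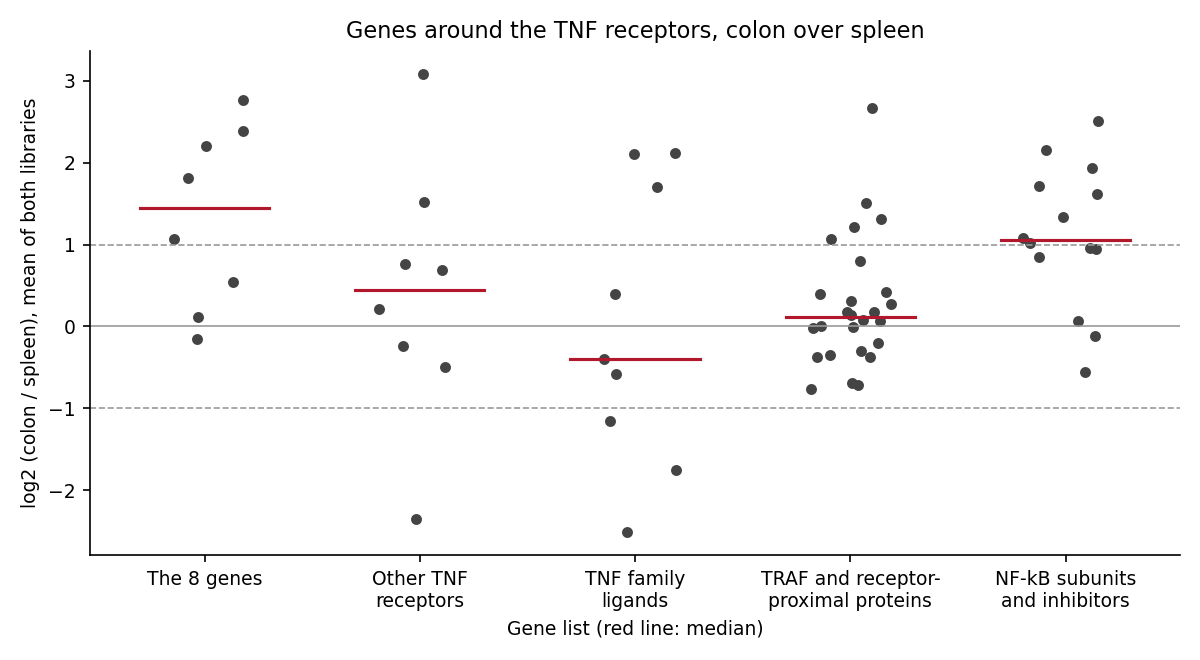
Log2 ratio of colon over spleen, as the mean of both colon libraries, for the 8 genes and for the measured genes of 4 lists; red lines are medians and dashed lines mark 2-fold. The NF-kB list lay mostly above 0, and the ligand list had genes beyond 2-fold on both sides.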

How the data were processed

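Per the labels' protocols, single sorted cells were captured in nanodroplets by the inDrops method, transcripts were reverse transcribed from oligo-dT primers and amplified by in vitro transcription, and libraries were read on a NextSeq500. TopHat2, SAMtools and the mm10 build appear in the submitters' processing notes, without versions. How genes were annotated, whether strand was used, how UMIs were collapsed and how cells were kept is not given in the sources used here. As deposited, the authors' values are raw UMI counts per gene and cell, whole numbers up to 183 that were not normalized.

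For each library, UMI counts of all its cells were added up per gene and divided by the sum over all genes. CPM have exact Poisson intervals, ratios exact conditional binomial intervals and shares of cells exact Clopper-Pearson intervals, all at 95% and for counting error only. A gene was called where its CPM ratio to spleen passed 2-fold in the same direction in colon 1 and colon 2. Thinning used a fixed seed. Clusters came from scanpy 1.11.5 and leidenalg 0.10.2, with cells scaled to 10000 UMIs, 2000 variable genes less the 3 of the 8 genes among them (1997 used), 20 components, 15 neighbours and resolution 0.8. No doublet caller was run and no cell was removed other than those too shallow to thin. The ratio calls were tested on simulated counts with counting error only and with changes larger than 2-fold. Calls near 2-fold and the spread between mice were therefore not covered. Gene positions are from GENCODE vM21 on mm10. The 8 genes and the lists were chosen with earlier results of these data known. Genes outside the 8 were named by rule, taking Foxp3, Il2ra, Ctla4 and Cd4, up to 4 genes per list with the largest ratios, the 3 genes most like each member, and the context genes where cells were split by a member. Alternatives used edgeR 4.0.16 in R 4.3.3 for TMM scaling, other totals and thresholds, and subsets of cells.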

Additional observations from a re-analysis of the deposited data

How the results depend on the processing

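No paired analysis was possible because the numbers in the labels count cells within a library and no test across libraries was made. The 5 members above spleen became 3 at 4-fold and 4 (without Tnfrsf18) in 4 other settings, and stayed at 5 in the remaining ones, while 0 were 2-fold lower in any setting. Of the 3482 genes above the minimum, 11.7% were higher and 4.45% lower in each colon library. These shares were 4.82% and 0.689% at 4-fold, and 19.5% and 12% at 1.5-fold. With a minimum of 20 CPM, 9.64% were higher and 5.58% lower of 6367 genes, and with no minimum 7.74% and 9.56% of 15742. Totals without ribosomal protein genes gave 7.92% higher and 7.99% lower of 4392 genes and put their median log2 ratio at -0.24, beside 0.02. In that setting 49.8% of all calls were higher ones, beside 72.5%. Leaving out colon 2 or colon 1 gave 12.7% and 14.4% higher and 6.92% and 7.75% lower.

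Over 11 alternatives, the mean log2 ratio ran between 1.98 and 2.24 for Tnfrsf4, 2.55 and 2.90 for Tnfrsf9, 2.17 and 2.60 for Tnfrsf1b, 1.52 and 2.45 for Traf1, and 0.86 and 1.13 for Tnfrsf18. It ran between 0.14 and 0.89 for Tnfrsf1a, -0.10 and 0.32 for Cd27, and -0.74 and -0.09 for Tnfrsf25, whose lowest value came from cells with a Foxp3 UMI alone. The causes were not tested. At Leiden resolutions 0.5 and 1.2, 24 ratios of the highest to the lowest cluster stayed within the counting interval of the value at 0.8 and 8 did not. With 42 to 62 spleen UMIs, depth limits Tnfrsf1a and Tnfrsf25 most.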

Other observations

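Cells with a Traf1 UMI were also compared with cells without one at 1000 UMIs each. In colon, Il1rl1 had 533.98 CPM in cells with Traf1 and 272.2 in cells without it in colon 1, and 369.1 and 207.7 in colon 2. Klrg1 was 1.56-fold and 1.75-fold higher in the cells with Traf1 of colon 1 and colon 2. In spleen, where 47 thinned cells had Traf1, Klrg1 was at 0.88-fold with a log2 interval of -1.43 to 0.85. Ikzf2, which encodes the Treg transcription factor Helios, was higher in cells with Traf1 of all 3 libraries, by 1.51-fold in colon 1, 1.36-fold in colon 2 and 1.70-fold in spleen. Maf, a transcription factor gene of intestinal Tregs, was lower in the colon cells with Traf1, at 679.6 against 1021.7 CPM in colon 1 and 1034.9 against 1189.9 in colon 2.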
